A study of Mus musculus with 8 samples.

Results

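The NR4A and EGR transcription factor genes Nr4a1, Nr4a2, Nr4a3, Egr1, Egr2 and Egr3 were examined in CD8+ T cells sorted from mouse tumours. These 6 genes are named rows among the 20029 genes of the deposited table, and all 6 were found there. They were selected on gene family, with their knockout and wild-type values in these same libraries already known, so their differences between genotypes are given as a description. A fit across all genes includes those above a filter, and nothing is read from its calls for them. Tumours were MC38-OVA, a mouse colon carcinoma line that carries the model antigen ovalbumin, grown under the skin of the flank. The 4 Pglyrp1 KO libraries (KO 1 to 4) came from B6.129S4-Pglyrp1tm1.1Lky/J mice and the 4 WT libraries (WT 6 to 9) from C57BL/6J mice, with 1 mouse per library as the series describes its design. The allele is carried by the whole animal and was not limited to T cells. Both strains were bought, ages are not stated, and nothing says that KO and WT mice were littermates. Tumours were digested with collagenase, and live CD45+ TCRβ+ CD8+ cells were sorted, 1000 to a library.

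NR4A proteins are orphan nuclear receptors, which bind DNA without a known ligand in the usual sense and whose activity follows their abundance. EGR proteins are zinc finger factors that bind GC-rich sites. Both families are early response genes: a T cell receptor signal switches them on within minutes through calcium and MAP kinase pathways, without new protein synthesis. In tumour CD8+ T cells, NR4A factors are known for their part in exhaustion, the loss of function under lasting antigen, and Egr2 and Egr3 for restraining activated T cells.

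Values are in TPM, a length-adjusted share of transcripts, obtained by rescaling each library of the deposited score to a sum of 1000000. The submitters label the score as TPM-normalized, which would make it per length, but the scaling step is not given. Comparisons of level between genes rest on that label, and would not be per length if the score were a count of reads. Differences are means of log2(TPM + 1) in KO minus WT, a scale that understates the change of low genes. The deposited score summed to 2223162 to 3342847 per library and 11935 to 13300 genes were above 0. Depth in reads is unknown, so no counting intervals are given. Pglyrp1, the targeted gene, was listed at 0 in each KO library, against 123 to 210 TPM in WT libraries. Markers of CD8+ T cells (9 genes, among them Cd3e and Cd8b1) were above 0 in every library, and their summed level was 5853 to 6556 TPM in KO and 5912 to 8147 TPM in WT libraries. Libraries KO 3 and KO 4 stood apart in macrophage and dendritic cell markers (17 genes, among them Lyz2 and Cd74). The summed level of these was 411, 334, 6365 and 9313 TPM in KO 1 to 4 and 211, 176, 196 and 677 TPM in WT 6 to 9, and for 16 of the 17 both KO 3 and KO 4 exceeded every other library. Libraries WT 6 and WT 9 stood apart in naive and memory T cell markers (7 genes, among them Ccr7 and Tcf7). These summed to 1314, 914, 837 and 365 TPM in KO 1 to 4 and to 2220, 556, 627 and 1988 TPM in WT 6 to 9. Natural killer cell markers (7 genes, among them Ncr1 and Klrb1c) separated the genotypes as a sum, with 102 to 226 TPM in KO and 40.1 to 73.3 TPM in WT libraries. Taken singly, 1 of the 7 had all KO libraries above all WT libraries, beside 2.62% of all genes tested. The part of natural killer cells in the differences described here was not tested. CD4 and regulatory T cell markers summed to 18.02 to 80.2 TPM in KO and 9.35 to 29.5 TPM in WT libraries. B cell markers summed to 20.8, 6.05, 12.3 and 6.31 TPM in KO 1 to 4. They summed to 46.7, 7.20, 9.72 and 49.95 TPM in WT 6 to 9, and were thus highest in WT 6 and 9. Stroma and endothelium markers summed to 22.1 to 58.5 TPM in KO and 17.99 to 37.4 TPM in WT libraries, and epithelial tumour markers to 3.93 to 69.0 TPM in KO and 1.63 to 4.51 TPM in WT libraries. Erythroid and platelet markers, of which Ppbp was at 0 throughout, reached 6.65 to 2103 TPM in KO and 3.60 to 849 TPM in WT libraries. In bulk libraries, a larger share of cells that express a gene and more RNA per cell cannot be told apart.

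The NR4A family was higher in KO cells as a sum, and Nr4a2 was the member whose groups did not overlap. Summed over its 3 members, the family was at 179.5, 116, 132 and 107 TPM in KO 1 to 4 and at 33.7, 79.6, 66.7 and 54.7 TPM in WT 6 to 9. Every KO library was above every WT library, while Nr4a1 and Nr4a3 each overlapped between the groups. Among single genes tested, 2.62% had all KO libraries above all WT libraries. The share among sums of 3 genes was not worked out. The sum averaged 133 ± 32.4 TPM in KO cells and 58.7 ± 19.5 TPM in WT cells (SD, n = 4 each).

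Nr4a2 (Nurr1; chromosome 2, 57106830 to 57124003, minus strand, mm10) encodes a nuclear receptor best known from dopamine neurons and also induced in stimulated T cells. It was at 31.9, 22.7, 40.4 and 42.5 TPM in KO 1 to 4 and at 3.25, 7.65, 6.95 and 9.05 TPM in WT 6 to 9. The lowest KO library was above the highest WT library. Means were 34.4 ± 9.04 TPM in KO and 6.72 ± 2.47 TPM in WT cells (SD, n = 4 each), a ratio of means of 5.11 and a log2 difference of 2.22 (SE 0.31). KO 3 and KO 4, which had the highest macrophage markers, were also the highest in Nr4a2. The part of macrophages and dendritic cells in its level was not tested. KO 1 and 2 averaged 27.3 TPM of Nr4a2, and KO 3 and 4 averaged 41.4 TPM. The log2 difference came to 1.92 when KO 3 and 4 were left out, to 2.05 when WT 6 and 9 were, and to 1.75 when all 4 were. With the macrophage and dendritic cell marker level added to the fit, it was 1.77.

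Nr4a1 (Nur77; chromosome 15, 101254269 to 101274795, plus strand) is widely used as a reporter of T cell receptor signal strength. It was at 135, 87.1, 76.0 and 53.4 TPM in KO 1 to 4 and at 25.6, 62.5, 52.4 and 37.4 TPM in WT 6 to 9. KO 1 to 3 were above all WT libraries and KO 4 lay below WT 7. The means were 88.0 ± 34.6 TPM in KO and 44.5 ± 16.3 TPM in WT cells, a log2 difference of 0.97 (SE 0.33). Unlike Nr4a2, Nr4a1 was lowest among KO libraries in KO 3 and KO 4. Within WT, it was lower in WT 6 and 9 than in WT 7 and 8 (means 31.5 and 57.5 TPM). WT 6 and 9 were the libraries with high naive and memory markers and with the highest B cell markers. Within KO, by contrast, Nr4a1 and the naive and memory markers fell together from KO 1 to KO 4. Those markers summed to 1314, 914, 837 and 365 TPM in KO 1 to 4. The part of naive, memory or B cells in the Nr4a1 level was not tested. Without WT 6 and 9 the log2 difference was 0.53.

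Nr4a3 (Nor1; chromosome 4, 48045153 to 48086447, plus strand) is the remaining receptor of the family and binds the same element. It was at 12.1, 6.05, 15.3 and 10.9 TPM in KO 1 to 4 and at 4.88, 9.45, 7.29 and 8.26 TPM in WT 6 to 9. The groups overlapped, since KO 2 was below 3 of the 4 WT libraries. Means were 11.1 ± 3.83 TPM in KO and 7.47 ± 1.94 TPM in WT cells, a log2 difference of 0.48 (SE 0.30), and 0.05 without both pairs.

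**Figure D1:**
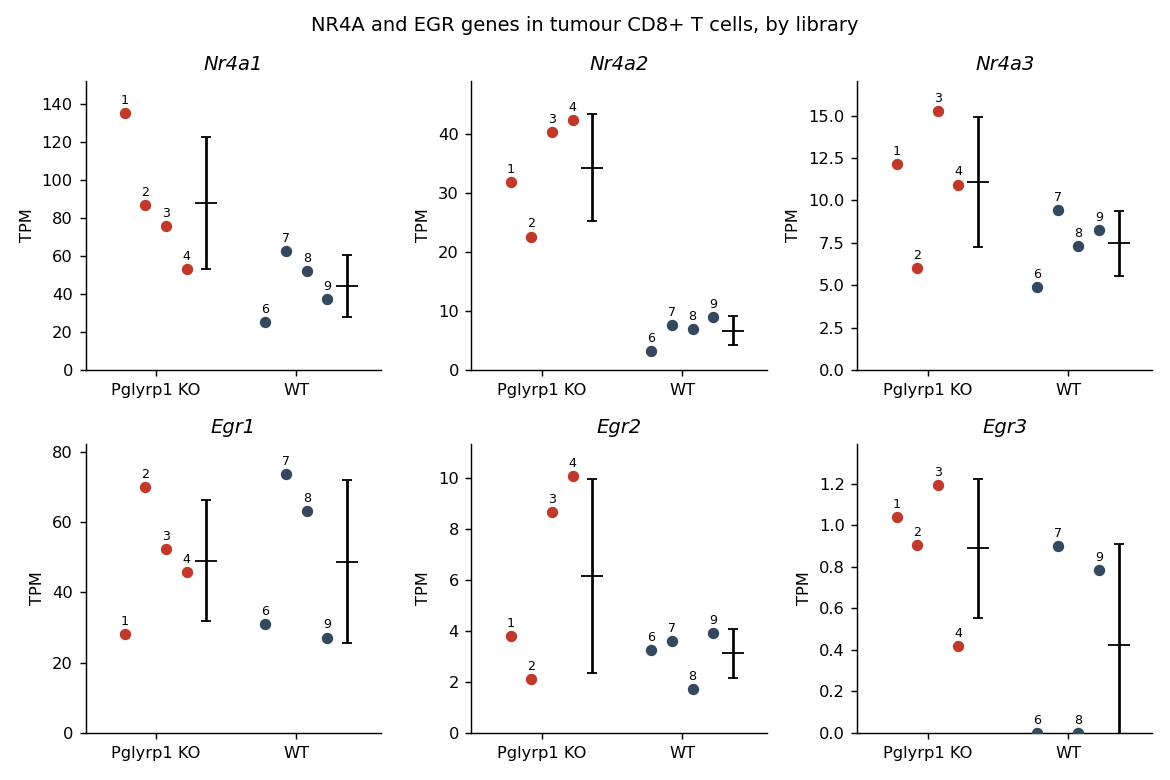
TPM of each gene (y axis, from 0) in the 4 Pglyrp1 KO libraries (red) and the 4 WT libraries (blue-grey); small numbers name the library, and the black bar gives the mean with its SD (cut off at 0 for Egr3 in WT). Nr4a2 is at 22.7 to 42.5 TPM in KO and 3.25 to 9.05 TPM in WT libraries, while Egr1 covers nearly the same range in both.

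The make-up of the NR4A sum is a further description of the same values. Nr4a2 gave 17.8%, 19.6%, 30.7% and 39.8% of the family's TPM in KO 1 to 4, and 9.64%, 9.60%, 10.4% and 16.5% in WT 6 to 9. Its share was thus larger in each KO library than in each WT library. How often a share within other families separates the genotypes was not examined. Nr4a1 gave the largest part in all 8 libraries, 50.0% to 75.5% in KO and 68.3% to 78.6% in WT. Nr4a3 gave 5.22% to 11.6% in KO and 10.9% to 15.1% in WT. The ratio of Nr4a2 to Nr4a1 was 0.24, 0.26, 0.53 and 0.80 in KO 1 to 4 and 0.13, 0.12, 0.13 and 0.24 in WT 6 to 9, which overlap at KO 1 and WT 9.

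**Figure D2:**
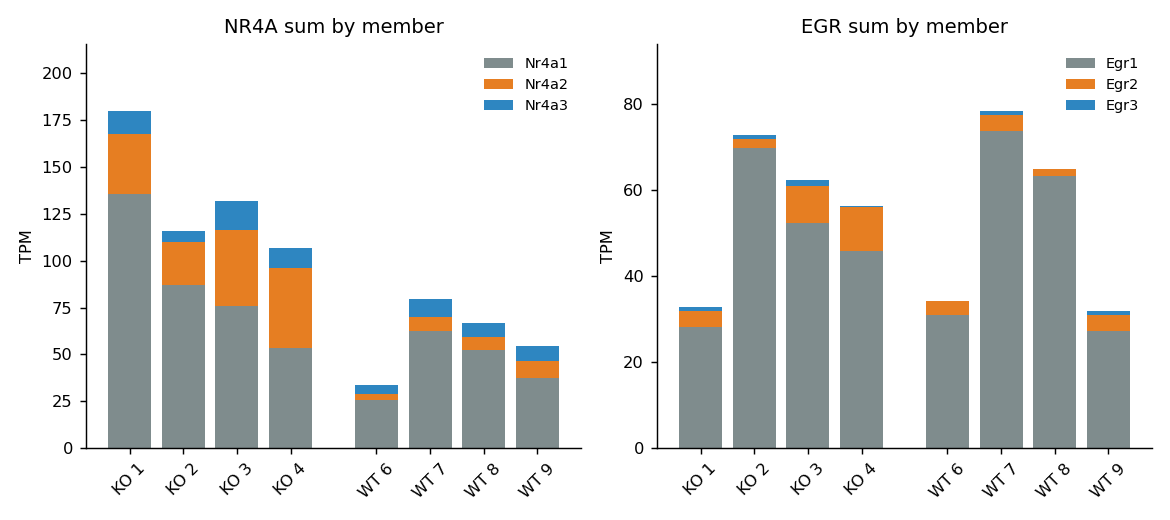
Stacked TPM (y axis, from 0) of the 3 NR4A genes (left) and the 3 EGR genes (right) in each library, KO 1 to 4 before WT 6 to 9. The NR4A sum is 107 to 179.5 TPM in KO and 33.7 to 79.6 TPM in WT libraries, and the EGR sum is 32.9 to 72.9 TPM in KO and 31.9 to 78.3 TPM in WT libraries.

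Promoter sequence was a feature that the choice of genes did not use. RefSeq windows of GRCm38.p6, the same assembly as mm10, were at hand for 4 of the 6 genes, Nr4a1, Nr4a2, Nr4a3 and Egr2, and not for Egr1 and Egr3. The 250 bases upstream of the start were searched on both strands for the half-site of the cyclic AMP response element (CGTCA), bound by the CREB and ATF factors that calcium and cyclic AMP signals activate, for the full element (TGACGTCA, which holds a pair of overlapping half-sites), for the CArG box bound by serum response factor, for the EGR site (GCGNGGGCG) and for the NR4A element NBRE (AAAGGTCA). Each NR4A window held 4 half-sites, and 0.137% of 32817 windows of that length held at least 4. Those windows were not matched for GC content, so the shares given here are not those of similar sequence. Egr2 held 2 half-sites (at least 2 in 3.90% of windows) and 1 CArG box (17.75% of windows held at least 1 half-site, 1.47% a CArG box). An EGR site was found in the Nr4a1 and Nr4a2 windows (4.70% of windows), and NBRE (1.34%) and the full element (1.55%) in none of the 4. The stretches that span the half-sites are shown because the 3 NR4A genes, which differ in level, share this count of half-sites. They are given 5′ to 3′ on the gene's strand, with half-sites in capitals and, in Egr2, the CArG box as the longer run of capitals, and with 15 bases on either side of the outermost half-sites. EGR sites are not marked: the one in Nr4a1 begins at -60 from the start, within its stretch, and the one in Nr4a2 at -74, downstream of its stretch.
Nr4a1, chr15:101266598-101266825, plus strand: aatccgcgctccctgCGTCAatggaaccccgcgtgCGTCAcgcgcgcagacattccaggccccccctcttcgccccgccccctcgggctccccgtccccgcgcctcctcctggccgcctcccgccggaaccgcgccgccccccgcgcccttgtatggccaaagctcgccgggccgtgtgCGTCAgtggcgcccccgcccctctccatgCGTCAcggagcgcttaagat
Nr4a2, chr2:57124095-57124218, minus strand: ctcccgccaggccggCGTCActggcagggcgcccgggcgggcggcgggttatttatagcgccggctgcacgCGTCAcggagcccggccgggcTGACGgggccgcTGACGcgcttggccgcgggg
Nr4a3, chr4:48045059-48045177, plus strand: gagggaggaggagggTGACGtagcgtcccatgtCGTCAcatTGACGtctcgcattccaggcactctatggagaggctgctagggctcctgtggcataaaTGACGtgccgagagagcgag
Egr2, chr10:67537743-67537833, plus strand: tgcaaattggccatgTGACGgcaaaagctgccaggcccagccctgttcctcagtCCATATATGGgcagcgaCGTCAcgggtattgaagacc

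Measured from the start, counting the base before it as -1, the half-sites began at -233, -213, -69 and -40 in Nr4a1, at -200, -144, -123 and -111 in Nr4a2, at -231, -213, -205 and -147 in Nr4a3 and at -111 and -55 in Egr2. RefSeq places the Nr4a3 start at 48045305, downstream of the GENCODE M21 start at 48045153, so the site at -147 falls inside the GENCODE transcript. Egr2 has 5 RefSeq windows, and the one that starts with its GENCODE principal transcript was used. A match describes these letters only.

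The EGR sum differed more among libraries than between genotypes. It was 32.9, 72.9, 62.2 and 56.4 TPM in KO 1 to 4 and 34.1, 78.3, 64.9 and 31.9 TPM in WT 6 to 9, and averaged 56.1 ± 16.9 TPM in KO and 52.3 ± 23.0 TPM in WT cells (SD, n = 4 each). The spread within either genotype was wider than the gap between their means.

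Egr1 (Zif268; 34859823 to 34864984, plus strand of chromosome 18) is the family's most abundant member and a classic target of serum response factor. It was at 28.1, 69.8, 52.4 and 45.9 TPM in KO 1 to 4 and at 30.9, 73.8, 63.2 and 27.1 TPM in WT 6 to 9. The means were 49.0 ± 17.3 TPM in KO and 48.7 ± 23.2 TPM in WT cells, a log2 difference of 0.06 (SE 0.37). WT 6 and 9 (mean 29.0 TPM) were both below WT 7 and 8 (mean 68.5 TPM). The sign turned with single libraries, the lowest value being -0.17 without WT 9 and the highest 0.30 without WT 7. It also turned with scaling, to -0.07 when ribosomal protein and the most abundant genes were left out of the total. The difference was -0.01 when KO 3 and 4 were left out, -0.54 when WT 6 and 9 were, and -0.61 without both pairs.

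Egr2 (Krox20; chromosome 10, 67535475 to 67542188, plus strand) is tied to T cell anergy, a state of unresponsiveness. It was at 3.81, 2.12, 8.68 and 10.1 TPM in KO 1 to 4 and at 3.25, 3.60, 1.74 and 3.93 TPM in WT 6 to 9. KO 3 and KO 4 were above all other libraries, while KO 1 and KO 2 lay within the WT range. These are the libraries with high macrophage and dendritic cell markers, cells that can also express Egr2, and the part of those cells in the level was not tested. The log2 difference was 0.65 (SE 0.42) with all libraries and -0.06 without KO 3 and 4. It was 0.84 without WT 6 and 9 and 0.13 without both pairs.

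Egr3 (chromosome 14, 70077203 to 70082614, plus strand), which acts beside Egr2 in T cells, was close to the lowest values of the table. It was at 1.04, 0.91, 1.20 and 0.42 TPM in KO 1 to 4 and was listed at 0 in WT 6 and WT 8, beside 0.90 and 0.79 TPM in WT 7 and WT 9. In the deposited score these are whole numbers of 4 or less, so a single unit moves them widely. Egr3 did not reach the filter of 1 TPM in 4 libraries and was left out of the fit.

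Ordered by mean level, KO cells had Nr4a1, Egr1, Nr4a2, Nr4a3, Egr2 and Egr3, from highest to lowest. WT cells had Egr1, Nr4a1, Nr4a3, Nr4a2, Egr2 and Egr3. Nr4a2 thus stood above Nr4a3 in KO and just under it in WT. In KO cells the ranges of neighbours overlapped except between Nr4a2 and Nr4a3 and between Egr2 and Egr3. In WT cells they overlapped except between Nr4a1 and Nr4a3 and between Egr2 and Egr3. Nr4a1 exceeded Egr1 in 4 of 4 KO libraries, and Egr1 exceeded Nr4a1 in 3 of 4 WT libraries, WT 9 being the other. The ratio of Nr4a1 to Egr1 was 4.83, 1.25, 1.45 and 1.17 in KO 1 to 4 and 0.83, 0.85, 0.83 and 1.38 in WT 6 to 9. Among the genes above 0 in a library, Nr4a2 had a higher value than 68.0% to 77.5% in KO and 26.7% to 48.3% in WT libraries, whereas Egr1 exceeded 72.8% to 86.6% in KO and 72.1% to 85.8% in WT.

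**Figure D3:**
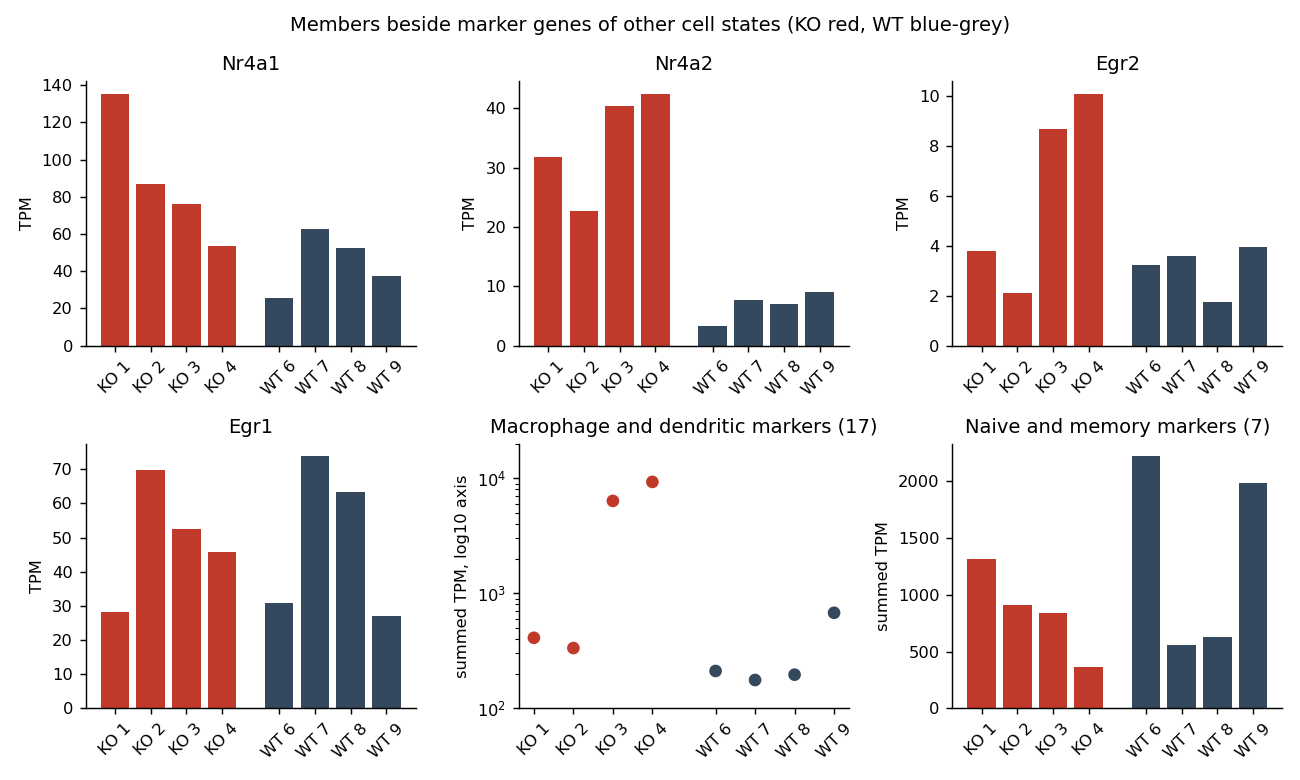
TPM of Nr4a1, Nr4a2, Egr2 and Egr1 by library (bars from 0), beside the summed TPM of 17 macrophage and dendritic cell markers (points, log10 axis) and of 7 naive and memory T cell markers (bars), KO in red and WT in blue-grey. Egr2 is highest in KO 3 and 4, where macrophage markers reach 6365 and 9313 TPM, and Nr4a1 and Egr1 are lower in WT 6 and 9 than in WT 7 and 8.

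The 10732 genes that reached 1 TPM in 4 or more of the 8 libraries were fitted with limma, and 3 of them, or 0.0280%, passed an adjusted p of 0.05 (Benjamini-Hochberg). None of the 5 tested members was among them. At an unadjusted p of 0.05, 2 members (Nr4a1 and Nr4a2) were higher in KO, as were 6.01% of all genes tested. Groups did not overlap for Nr4a2 alone, with KO above WT, as for 2.62% of genes tested. Since the members were chosen with this contrast known, nothing is read from these counts. The median log2 difference was 0.57 for the 6 members and 0.65 for the 5 tested ones, beside 0.04 over all genes tested.

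**Figure D4:**
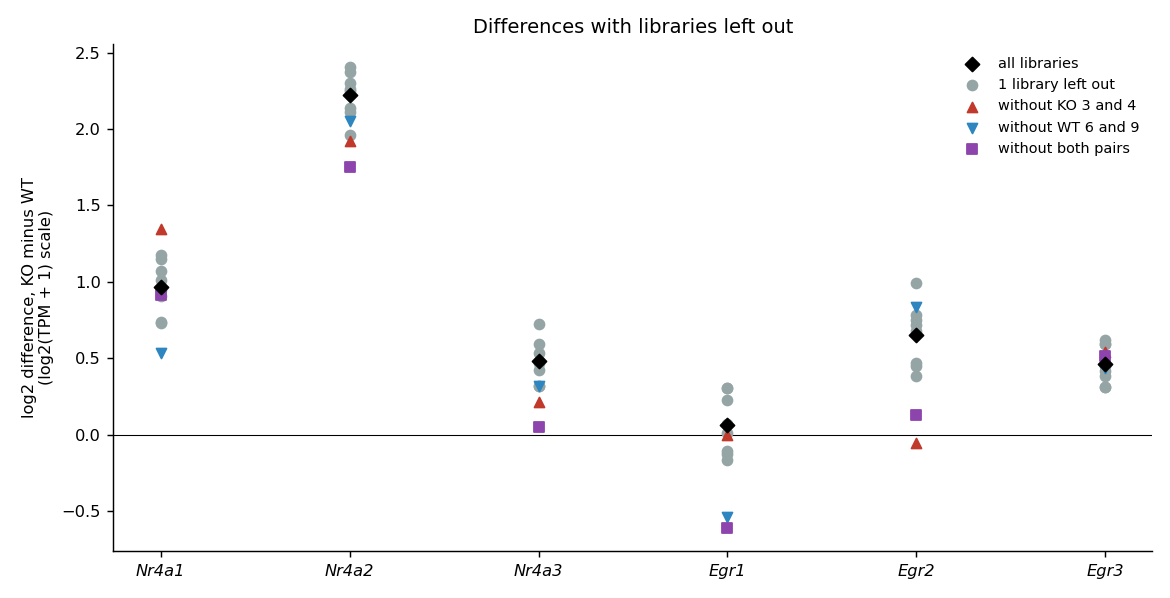
Log2 difference of KO minus WT (y axis, log2(TPM + 1) scale) for each of the 6 genes with all 8 libraries (black diamonds), with each library left out in turn (grey circles) and with KO 3 and 4, WT 6 and 9, or both pairs left out (coloured). Nr4a2 stays between 1.75 and 2.40, Egr2 is at -0.06 without KO 3 and 4, and Egr1 lies on both sides of 0.

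Genes of the same pathway were taken from lists. Of the cofactors and relatives, 5 were in the table and 4 were tested, and limma called 0, with 0 at an unadjusted p of 0.05. Nab1 and Nab2 encode proteins that bind EGR factors and repress them. Nab1 had 10.5 ± 3.07 TPM in KO and 7.44 ± 1.34 TPM in WT cells, and Nab2 11.7 ± 8.69 TPM in KO and 9.61 ± 3.91 TPM in WT cells (SD, n = 4 each). Rxra and Rxrb are nuclear receptors that can pair with Nr4a1 and Nr4a2. Rxra had 2.29 ± 1.299 TPM in KO and 5.46 ± 3.63 TPM in WT cells, and Rxrb 9.79 ± 2.90 TPM in KO and 12.7 ± 2.90 TPM in WT cells. Egr4 was listed at 0 in every library except WT 8, where it was at 0.35 TPM.

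Upstream regulators of these genes were the next list (kinases, calcineurin, NFAT, MEF2, CREB, serum response factor partners, Hdac7 and Cabin1). The list mixes activators with repressors such as Hdac7, so a direction or median over it has no single meaning. Of 24 tested, limma called 0, and at an unadjusted p of 0.05 there were 2 higher (Crem and Mapk3) and 2 lower (Elk4 and Hdac7), named after their values were seen, beside 6.01% higher and 3.07% lower over all genes. The list's median log2 difference was -0.08, beside 0.04 over all genes. Leaving out KO 3 and 4 gave 1 higher and 1 lower of 24, beside 1.73% higher and 2.49% lower over all genes. Leaving out WT 6 and 9 gave 1 higher and 4 lower of 25, beside 3.63% higher and 5.47% lower over all genes. Leaving out both pairs gave 1 higher and 5 lower of 24, with a median of -0.27 beside -0.11 over all genes, of which 3.51% were higher and 8.88% lower. Crem, whose short products restrain cyclic AMP response elements, was at 78.4 ± 27.2 TPM in KO and 27.1 ± 15.7 TPM in WT cells (log2 difference 1.61, SE 0.39, limma adjusted p = 0.395). Elk4, a partner of serum response factor, was at 11.0 ± 0.88 TPM in KO and 19.0 ± 3.85 TPM in WT cells. Crem was the gene of the list with all KO libraries above all WT libraries, and Elk4 the one with all below (2.62% and 2.40% of all genes). By mean over all 8 libraries, the most abundant genes of the list were Prkcq (108 ± 19.0 TPM in KO, 125 ± 24.6 in WT), Map2k1 (115.5 ± 9.60 TPM in KO, 90.4 ± 35.8 in WT), Map2k2 (50.4 ± 25.0 TPM in KO, 74.0 ± 36.3 in WT) and Nfatc1 (63.1 ± 5.32 TPM in KO, 61.2 ± 15.6 in WT), the last a calcium-driven activator of NR4A and EGR genes.

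Other immediate early genes were divided in direction with all libraries. Of 30 tested, 16 had a positive and 14 a negative log2 difference, the median was 0.04, limma called 0, and at an unadjusted p of 0.05 there were 5 higher (Atf3, Ier3, Fosl2, Zfp36 and Gadd45b) and 1 lower (Dusp2), named after their values were seen, beside 6.01% higher and 3.07% lower over all genes. With KO 3 and 4 left out there were 3 higher and 1 lower of 30. The median was then 0.17 (1.73% higher and 2.49% lower over all genes, median -0.02). The balance turned when WT 6 and 9 were left out, with 0 higher and 5 lower of 31 and a median of -0.16 (3.63% higher and 5.47% lower over all genes, median -0.04). With both pairs left out there were 1 higher and 5 lower of 30 (3.51% and 8.88% of all genes), with a median of -0.08 beside -0.11 over all genes. Fos, the AP-1 component induced beside Egr1, was at 165, 193.5, 246.5 and 170.4 TPM in KO 1 to 4 and 222, 165, 175 and 208 TPM in WT 6 to 9, with overlapping groups. By mean over all 8 libraries, the most abundant of the list were Junb (985 ± 299 TPM in KO, 1359 ± 248 in WT), Rgs1 (400.0 ± 192 TPM in KO, 473 ± 294 in WT), Nfkbia (324 ± 61.0 TPM in KO, 363 ± 34.3 in WT) and Dusp1 (272 ± 42.5 TPM in KO, 342 ± 116 in WT). Dusp2, a nuclear MAP kinase phosphatase induced by activation, was at 22.9, 53.8, 43.4 and 36.2 TPM in KO 1 to 4 and at 95.9, 390.4, 299 and 49.2 TPM in WT 6 to 9. It was the one gene of this list to pass limma in any setting, lower by 3.16 on the log2 scale in KO without WT 6 and 9 (adjusted p = 0.0391), against adjusted p = 0.423 with all libraries.

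Of the genes tied to EGR or NR4A factors in T cells, 26 were tested, and 20 of them had a positive log2 difference. Of these 26, limma called 0, while at an unadjusted p of 0.05 there were 13 higher and 0 lower (6.01% and 3.07% of all genes), and 7 had all KO libraries above all WT libraries (2.62% of all genes). The median log2 difference was 0.70, beside 0.04 over all genes. By mean over all 8 libraries, its most abundant genes were Pdcd1 (PD-1; 456 ± 129 TPM in KO, 224 ± 137 in WT), Dgka, which limits diacylglycerol signals (250.2 ± 91.1 TPM in KO, 387 ± 145 in WT), Lag3, an inhibitory receptor (450.3 ± 126 TPM in KO, 113 ± 55.7 in WT), and Tnfrsf9 (4-1BB; 313 ± 49.9 TPM in KO, 101 ± 51.5 in WT). Chosen after their values were seen, Ndrg1, an anergy factor downstream of Egr2, was at 39.5 ± 13.1 TPM in KO and 10.7 ± 3.58 TPM in WT cells, and Sema7a, a membrane semaphorin, at 4.52 ± 2.66 TPM in KO and 0.41 ± 0.56 TPM in WT cells. Sema7a was close to the lowest values in WT 6 to 9 (0, 0.45, 0 and 1.18 TPM). It passed the filter through its KO libraries, and is counted among the 13 and the 7. There were 8 higher and 0 lower of 26 with KO 3 and 4 left out (1.73% and 2.49% of all genes), and 8 higher and 2 lower of 27 with WT 6 and 9 left out (3.63% and 5.47%). Without both library pairs the list had 6 higher and 2 lower, its median was 0.19 beside -0.11 over all genes, and 3.51% of all genes were higher and 8.88% lower. Checkpoint genes on this list were known to be higher from earlier results, so the list is no independent evidence.

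Heat shock genes respond to cell stress. Of 9 tested, 8 had a negative log2 difference, the median was -0.23, limma called 0, and 3 were lower at an unadjusted p of 0.05 (Hsph1, Dnajb1 and Dnaja1, named after their values were seen) and 0 higher, beside 3.07% lower and 6.01% higher over all genes. Dnaja1 was at 132 ± 17.02 TPM in KO and 175 ± 11.3 TPM in WT cells. Hspa8 (3235 ± 192 TPM in KO, 3399 ± 282 in WT), Hspe1 (228 ± 43.0 TPM in KO, 256 ± 78.6 in WT) and Hspd1 (117 ± 22.1 TPM in KO, 114 ± 12.6 in WT) were the others among its most abundant by mean over all 8 libraries.

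**Figure D5:**
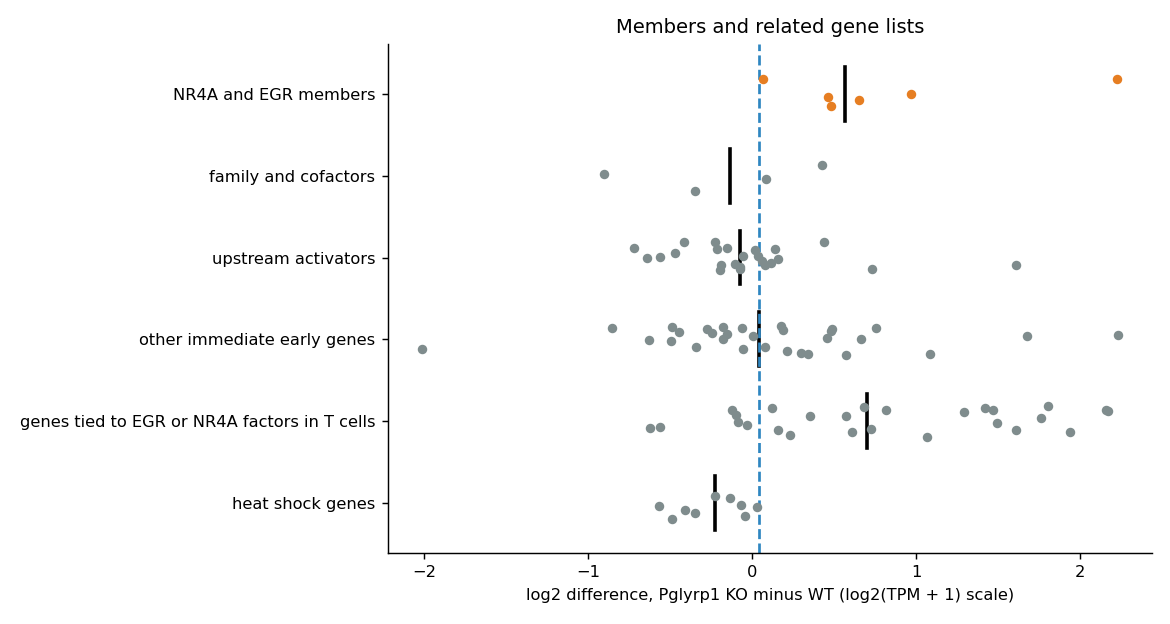
Log2 difference of KO minus WT (x axis, log2(TPM + 1) scale) for the 6 members (orange) and for the tested genes of 5 related lists (grey), each point 1 gene and each black bar the median of its row; vertical scatter has no meaning and the dashed line is the median of all genes tested, 0.04. The list tied to EGR or NR4A factors has a median of 0.70, while other immediate early genes centre on 0.04.

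Among the genes whose pattern over the 8 libraries was most like the mean log2 level of the 3 NR4A genes were Atg16l2 (Pearson r = 0.98), the chemokine gene Ccl4 (0.97), Faf2 (0.96) and the zinc finger repressor gene Zbtb32 (0.96), out of 7779 candidates with a mean of at least 5 TPM. Ccl4 was at 1231 ± 553 TPM in KO and 338 ± 197 TPM in WT cells, and Zbtb32 at 96.3 ± 37.6 TPM in KO and 20.0 ± 10.5 TPM in WT cells. With each genotype's mean removed, the most alike included Zbtb48, Irf3, Fam53c and Rabgef1 (r from 0.96 to 0.97). For the mean of the 3 EGR genes they were Ptprs, Nmral1, Chst12, Vwa5a and Klri2 over the libraries (r from 0.96 to 0.97), and they included Ptprs, Chst12, Klri2 and Poll with genotype means removed (0.95 to 0.97). These values rank likeness among many candidates and are given with no test.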

How the data were processed

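The authors deposited 1 table of 20029 genes by 8 libraries. The deposited values are a score in whole numbers, labelled TPM-normalized. Its sums per library are not the 1000000 of TPM, and whether it is a count of reads cannot be told. RSEM 1.3.3 and mm10 are named in the submitters' processing notes, and per the labels' protocols libraries were full-length (modified SMART-Seq2 and Nextera XT). For the aligner, annotation and scaling step, nothing is given in the sources used here. Each library was rescaled to 1000000 and log2(TPM + 1) was fitted with limma (version 3.58.1, under R 4.3.3; eBayes with trend, genotype as the one term), with Benjamini-Hochberg adjustment over all 10732 genes at 1 TPM or more in at least 4 libraries. The design had assumed TPM, and its test was applied to the rescaled score. The pipeline was tested on simulated data. Tables and figures used Python 3.11.15, pandas 2.3.3, numpy 2.4.6 and matplotlib 3.10.9.

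The members, the lists and the settings that leave out library pairs were chosen with earlier results of these data known. By rule, text names all members, all cofactors, any called list gene, each other list's 4 most abundant genes, and the 5 genes most like each family's mean by Pearson r. Other list genes in the text, among them Fos, Crem, Elk4, Ndrg1 and Sema7a, fall outside this rule and were named with the values at hand. Alternatives varied the pseudocount (0.5 or 5), filter, scaling, limma options and a macrophage marker covariate, and left out libraries. Positions are from GENCODE M21 (mm10), promoters from RefSeq (GRCm38.p6). Rxrg and Hbb-bt had no matching row and were not analysed here. Some genes that the rule on similar patterns picks are not reported here.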

Additional observations from a re-analysis of the deposited data

Results flagged for a closer look

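A check for a single library far from the other 3 of its genotype marked 4 of 72 groups, where chance marks about 1 in 20, or 3.6. None was a member. Egr4 was at 0.35 TPM in WT 8 and listed at 0 in the other WT libraries. Macrophage and dendritic cell markers summed to 677 TPM in WT 9 and 176 to 211 TPM in the other WT libraries. Epithelial tumour markers summed to 69.0 TPM in KO 4 and 3.93 to 12.9 TPM in the other KO libraries. Erythroid and platelet markers summed to 849 TPM in WT 9 and 3.60 to 57.6 TPM in the other WT libraries.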

How the results depend on the processing

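No paired analysis was possible because KO libraries are numbered 1 to 4 and WT libraries 6 to 9. In the settings tried, the lowest log2 difference of Nr4a2 was 1.74, with a pseudocount of 5. With values as deposited, where the median of all genes was 0.27, Egr3 had 1.04 and 4 genes were called, Nr4a2 among them, from which nothing is read. With the macrophage marker covariate, Nr4a1 had 1.38, Nr4a2 1.77, Nr4a3 0.17, Egr1 0.08, Egr2 -0.16 and Egr3 0.46. Egr2 had -0.0578 without KO 3 and 4, and Egr1 had -0.61 without both pairs. Causes were not tested. With 1 library left out, ranges were 1.96 to 2.40 for Nr4a2, 0.73 to 1.18 for Nr4a1, 0.32 to 0.72 for Nr4a3, -0.17 to 0.30 for Egr1, 0.38 to 0.99 for Egr2, 0.31 to 0.62 for Egr3 and 0.42 to 0.83 for the members' median. The genes called numbered 3 with all libraries and 2 to 9 with 1 left out (5 without KO 1, 9 without KO 2), 5 with KO 3 and 4 left out, 5 with WT 6 and 9 left out and 10 with both pairs left out. Among other immediate early genes, 1 (Dusp2) was called without WT 6 and 9. The order of members by level held for all 10 neighbouring pairs with 1 library left out.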
